A study of Oryza sativa Indica Group with 17 samples.

Results

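Predicted-gene probe sets with multiple matches are the sets of the Rice GeneChip whose names begin with OsAffx and end in _s_at or _x_at. They were chosen by name alone and number 4765 of the 57194 probe sets (8.33%), with 1267 sets ending in _s_at and 3498 ending in _x_at. The 20735 OsAffx sets that end in plain _at, called single-match sets here, served as the comparison, and the OsAffx sets number 25500 in all. Genomic DNA from leaves of IR64, an indica rice variety, was hybridized to 1 array for each of 16 mutant lines and for 1 wild type check, from plants of 45 days. The DEB lines are D256, D1137 and D2943, the gamma ray lines are G282, G650, G6485, G6489, G6603, G6686, G6728, G7534, G9799 and G6989, and the fast neutron lines are F1856 and F2045. The dwarf line d1 is labelled DEB but described in the study's methods as a gamma ray mutant, and was kept apart. All lines were carried through several selfed generations by single seed descent before DNA extraction, and all were compared with unmutagenized IR64. How many plants a DNA sample came from is not stated.

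An oligonucleotide array reports lost DNA as loss of hybridization. Each probe set holds short perfect match probes to 1 transcript model, and a segment that is missing from a mutant leaves its probes dim against wild type. Affymetrix marks with _s_at a set whose probes all match several transcripts, as members of a gene family do, and with _x_at a set in which some probes match unrelated sequences. A copy elsewhere in the genome can go on binding such probes when one copy is lost. OsAffx sets stand for genes predicted from genome sequence, a class that in rice includes many repeated and transposon-related sequences. DEB is diepoxybutane, a chemical that crosslinks DNA, whereas gamma rays and fast neutrons break it.

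Each deposited value is the share of a set's probes that the authors flagged as dim against wild type, from 0 to 1. A set at 0.5 or more is called low here. In 4753 of the 4765 multiple-match sets every value was a multiple of 1/11 within 0.005, as a set of 11 probes gives, so single values move in coarse steps. Of the multiple-match sets, 192 have exactly 1 gene in the annotation, 1 has several and 4572 (95.9%) have none, so most have no place on a chromosome here. Names ending their middle part in A mark sets for the antisense strand, which were 149 of the multiple-match sets (3.13%) and 1201 of the single-match sets (5.79%).

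The arrays differed in their general level of flagged probes. Over all 57194 sets the mean share was lowest in F1856 (0.00684) and highest in G6989 (0.176), and at 0.0745 the wild type check was above all lines but G282 and G6989. By the labels every array was set against the wild type check, even the wild type check itself, yet that array has flagged probes, so the wild type array behind the ratios is unclear. The set of RGA1, the gene of the heterotrimeric G protein alpha subunit that is lost in d1, was at 0.909 in d1 and at 0 in the wild type check. Lines were not replicated, so the line is the unit of every test, and probe sets are not replicates. The study's counts of predicted deletions by line include neither D1137 nor G6989. It discarded arrays that deviated strongly from wild type, without naming them. Both lines were kept as units here.

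Multiple-match sets had about the same mean share as single-match sets in most arrays. In d1 the mean share was 0.036 over the multiple-match sets and 0.0249 over the single-match sets. In G650 it was 0.0210 against 0.00764, the widest gap of the 16 lines. In D1137 it was 0.0605 against 0.0504. In these 3 lines the multiple-match sets were the higher ones. G6989, the line with most flagged probes, went the other way with 0.132 against 0.141. G282 did so too, with 0.0676 against 0.0726. In the wild type check the means were 0.0630 and 0.0644. The remaining 11 lines differed by no more than 0.00501 in either direction.

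**Figure D1:**
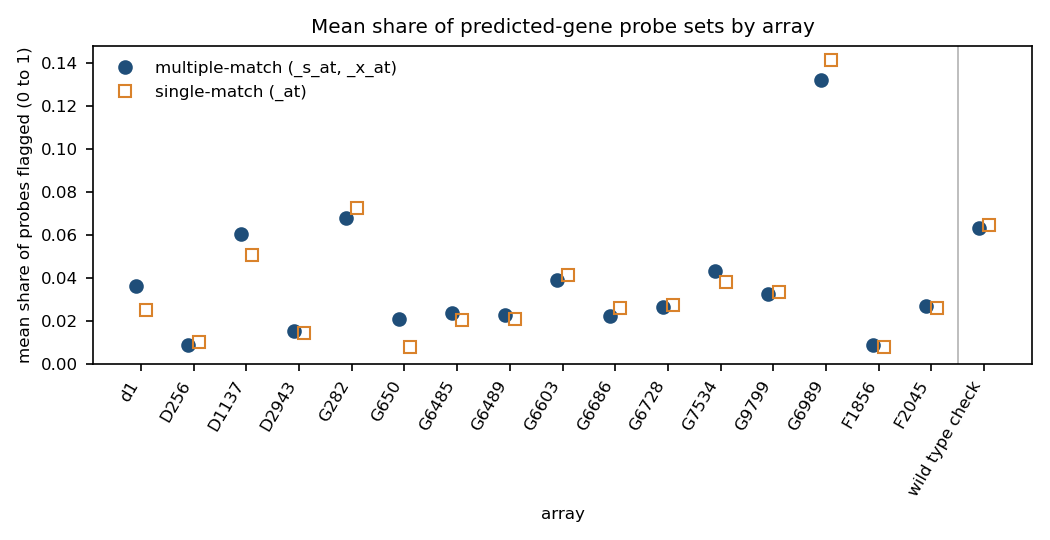
Mean share of flagged probes (vertical axis, 0 to 1) in each of the 17 arrays, for multiple-match sets (filled circles) and single-match sets (open squares). The 2 kinds lie close together in most arrays, with the multiple-match sets visibly higher in d1, D1137 and G650 and lower in G6989.

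Over the lines, the excess of the multiple-match sets, their mean share minus that of the single-match sets, was 0.00148 ± 0.00605 (SD, n = 16). It was above 0 in 9 of 16 lines and ran from -0.00957 in G6989 to 0.0134 in G650. An exact sign-flip permutation test over the 16 lines gave p = 0.348 (two-sided, smallest p possible 3.05e-05). The Benjamini-Hochberg value over a family of 6 tests was 0.522. Correlations, suffix comparisons and alternative settings lie outside that family. The excess was thus smaller than the spread between lines. In the wild type check it was -0.0014.

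The count of low sets set a few lines apart more clearly than the mean share did. In d1, 118 multiple-match sets were low (2.48%), against 181 single-match sets (0.873%) and a background of 0.649% over all sets. In G650, 99 were low (2.08%), against 93 single-match sets (0.449%) and a background of 0.477%. G7534 had 18 (0.378%), against 21 single-match sets (0.101%) and a background of 0.157%. G6485 had 10 (0.210%), against 4 single-match sets (0.0193%) and a background of 0.0402%. In these 4 lines the exact Clopper-Pearson intervals (95%, counting error only) of the 2 kinds lay apart, for instance 1.69 to 2.52% and 0.362 to 0.549% in G650. These intervals take the sets of an array as independent, although related sets were low together. Intervals that lie apart are thus a description and no test of a line.

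In the other 12 lines the intervals overlapped. D1137 had 70 low multiple-match sets (1.47%, background 1.44%), G282 had 63 (1.32%, background 1.73%) and G6989 had 53 (1.11%, background 2.55%). The shares of the single-match sets were 1.28%, 1.30% and 1.28% in that order. These counts depend on the threshold. With a share of 0.4 they were 135, 106 and 172, and with a share of 0.6 they were 37, 36 and 13. After subtraction of the wild type check G6989 had 20, G282 had 37 and d1 had 76. F2045 had 16 low multiple-match sets (background 0.192%), G6489 and G6603 had 6 each (backgrounds 0.0559% and 0.247%), and G9799 had 4 (background 0.0944%). G6728 and F1856 had 3 each (backgrounds 0.0315% and 0.0839%), and G6686 had 1 (background 0.0559%). In D256 and D2943 the count was 0 of 4765, which allows a share of up to 0.063% by a limit of 3 counts (exact Clopper-Pearson upper limit 0.0774%), against backgrounds of 0.0297% and 0.014%. On the wild type check 2 were low (0.042%, background 0.0192%), and 13 of the 16 lines had more.

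Over the lines, the excess of the percent of low sets was 0.235 ± 0.550 percentage points (SD, n = 16), with a median of 0.0211. It was above 0 in 9 of 16 lines, and the exact sign-flip permutation test gave p = 0.0591 (adjusted 0.118). The highest lines were G650 (1.63), d1 (1.60) and G7534 (0.276). The mean was 0.142 without G650, 0.144 without d1 and 0.0375 without both, while without D256 (0.254) or G6989 (0.262) the unadjusted p passed 0.05, at 0.0437 and 0.0246 (exact). The wild type check had 0.0323.

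Other sets of the array, whose names begin with Os., carry the same suffixes, and their excess was set against that of the predicted-gene sets. Among these, 5204 sets end in _s_at or _x_at and 25083 in plain _at. There the multiple-match sets had the lower mean share in 12 of 16 lines, with a mean excess of -0.00278 over the lines. The excess of predicted-gene sets was higher than that of other sets by 0.00426 ± 0.0041 (SD, n = 16). This held in 13 of 16 lines, with p = 0.000549 in the exact sign-flip permutation test (adjusted 0.0033). The wild type check showed a difference of 0.00285 of its own, and after it had been subtracted set by set the difference was 0.00141 with p = 0.19. For the percent of low sets the difference was 0.210 ± 0.395 percentage points, above 0 in 10 of 16 lines, with p = 0.0187 (exact sign-flip permutation test), which missed the threshold of 0.05 after adjustment (0.0562).

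No difference between mutagens was detected in the excess. In the 3 DEB lines the excess of the mean share was 0.00315 ± 0.0061 (SD), and in the 12 radiation lines 0.000263 ± 0.00569. The difference of 0.00289, which was -0.000576 without D1137, gave p = 0.462 in an exact permutation test of the group means (two-sided, adjusted 0.554). For the percent of low sets the means were 0.0428 ± 0.13 and 0.169 ± 0.473 percentage points, with p = 0.866 (exact, adjusted 0.866). With 3 lines against 12 the smallest p possible was 0.0044.

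Across the 16 lines the excess of the mean share was lower where the mean share of the other sets was higher, with a Pearson r of -0.62 and a permutation p of 0.0115. Spearman's rho was -0.576, with a permutation p of 0.0219. All lines share a wild type reference. G6989 and G282 lie farthest from the median level, and leaving them out brought r to -0.266 (p = 0.359 by permutation) and rho to -0.367 (p = 0.198 by permutation). The relation therefore depends on that pair of lines. The p-values of this relation are unadjusted. Only this relation was computed.

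Sets ending in _s_at and sets ending in _x_at were also compared with the single-match sets separately. The mean share of the _s_at sets was above that of the single-match sets in 14 of 16 lines, by 0.00805 on average, with p = 0.000305 in the exact sign-flip permutation test. The _x_at sets differed from the single-match sets by -0.000901 on average (p = 0.716, exact). These p-values are not adjusted. In G6989 the _s_at sets had a mean share of 0.165, the _x_at sets 0.119 and the single-match sets 0.141. In G282 the means were 0.0973, 0.0569 and 0.0726 in the same order. The wild type check showed the same order at 0.0696, 0.0607 and 0.0644, with a gap of 0.0089 between the suffixes. Between the suffixes themselves, _s_at was above _x_at in 12 of 16 lines, and below it in D1137, G650, G6489 and F1856. This difference was 0.00895 ± 0.0157 (SD, n = 16) and was not tested.

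**Figure D2:**
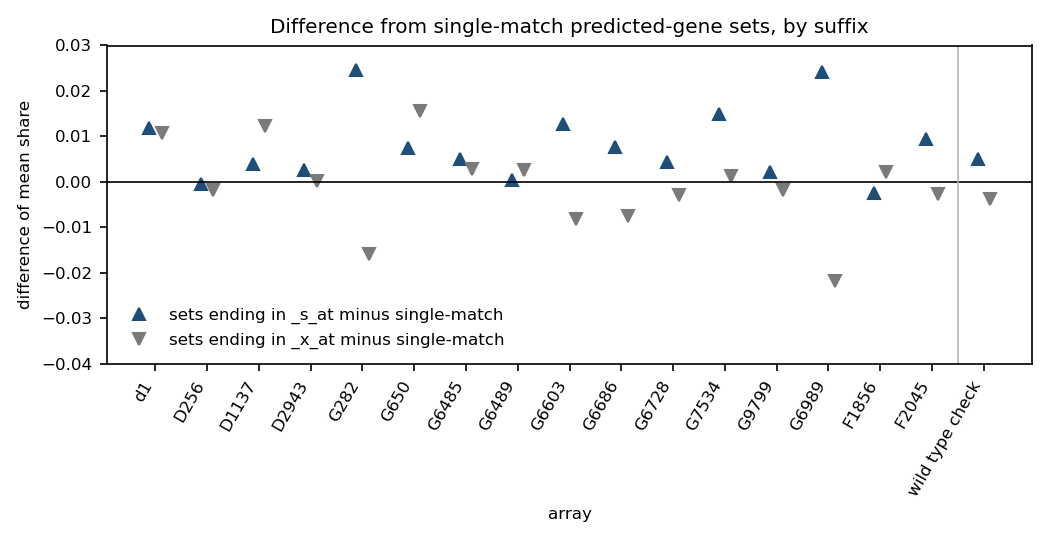
Mean share of _s_at sets (triangles pointing up) and of _x_at sets (triangles pointing down), each minus the mean share of single-match sets, in the 17 arrays. The _s_at sets lie above the zero line in all lines but D256 and F1856, and the suffixes part most in G282 and G6989.

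The split of low sets between the suffixes varied by line. G282 had 28 low _s_at sets (2.21%) and 35 low _x_at sets (1.0%), and D1137 had 28 (2.21%) and 42 (1.20%). In G650 the _x_at sets were called more often, with 84 of 3498 (2.40%) against 15 of 1267 _s_at sets (1.18%). In d1 they were 93 (2.66%) and 25 (1.97%). Over the lines the _s_at sets exceeded the single-match sets by 0.309 percentage points (p = 0.0043, exact, above 0 in 12 of 16 lines). The _x_at sets did so by 0.208 percentage points (p = 0.364, exact). Against other sets of the same suffix, the _s_at excess was higher by only 0.0215 percentage points (p = 0.857, exact sign-flip permutation test). It was higher in 9 of 16 lines, so the _s_at excess of the percent was not shown to be particular to predicted-gene sets. The _x_at excess was higher than that of other sets by 0.295 percentage points, in 11 of 16 lines (p = 0.0114, same test). For the mean share both suffixes exceeded other sets of the same suffix. The _s_at excess was higher by 0.00483, in 14 of 16 lines (p = 0.000916, same test). The _x_at excess was higher by 0.00442, in 13 of 16 lines (p = 0.00125, same test). The wild type check was not subtracted in these comparisons. All these p-values are unadjusted.

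The low multiple-match sets of d1 and G650 were not spread evenly over the set names. Where a gene is paired, the numbers in OsAffx names tend to follow the order of the rice chromosomes. They seem to do so in several passes, which was not measured. There are exceptions, such as OsAffx.26384.8.S1_x_at of chromosome 5 between numbers of chromosome 4, so a number alone does not place a set. Among the 208 sets with numbers from 23000 on that were paired with a nuclear gene, the Spearman rho of number and chromosome across sets was 0.830, a stretch chosen after the numbers were seen. The last number paired with a gene of chromosome 12 was 32183. After it come 262 OsAffx sets, numbered 32184 to 32350, of which 90 are multiple-match sets (80 _x_at and 10 _s_at) and 172 single-match sets. These 262 sets are called the end of the numbering here. The block was noticed after the values were seen, so its values are a description with no test. Of its sets 1 was paired with a gene, OsAffx.32229.1.S1_x_at with LOC4324621 of chromosome 1, and what the others match is not given in the tables used here.

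At the end of the numbering 76 of the 90 multiple-match sets were low in d1 (84.4%) and 71 in G650 (78.9%). Their median share was 0.727 in both lines and 0.0909 in the wild type check. G7534 had 17 low sets (18.9%), G282 had 14 (15.6%), G6485 had 6 (6.67%) and F2045 had 5 (5.56%). G6989 had 2, and D1137, G6489 and the wild type check had 1 each. In D256, D2943, G6603, G6686, G6728, G9799 and F1856 the count was 0 of 90. That allows a share of up to 3.33% by 3 counts (exact Clopper-Pearson upper limit 4.02%). The 90 sets are 1.89% of the multiple-match sets, yet held 64.4% of the low multiple-match sets of d1, 71.7% of those of G650 and 94.4% of those of G7534.

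Single-match sets at the end of the numbering were also low, but in other proportions. In d1 130 of the 172 were low (75.6%, interval 68.5 to 81.8%), against 84.4% (75.3 to 91.2%) of the multiple-match sets. The intervals of this block take its sets as independent, and the block was noticed after its values were seen. They are given as counting error and test no difference. In G650 the share was 44.8% (37.2 to 52.5%) against 78.9% (69.0 to 86.8%). G282 went the other way, with 34.9% (27.8 to 42.5%) of the single-match sets and 15.6% (8.77 to 24.7%) of the multiple-match sets low. F2045 did likewise, with 20.9% against 5.56%. The block makes up 0.830% of the single-match sets. It held 71.8% of the low single-match sets of d1, 82.8% of those of G650 and 57.1% of those of G7534. The kinds also differ there in orientation, since 16 of the 90 multiple-match sets and 118 of the 172 single-match sets (68.6%) are antisense. Among sense sets alone, 74.3% of 74 multiple-match and 27.8% of 54 single-match sets were low in G650, and in G282 16.2% and 38.9%.

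**Figure D3:**
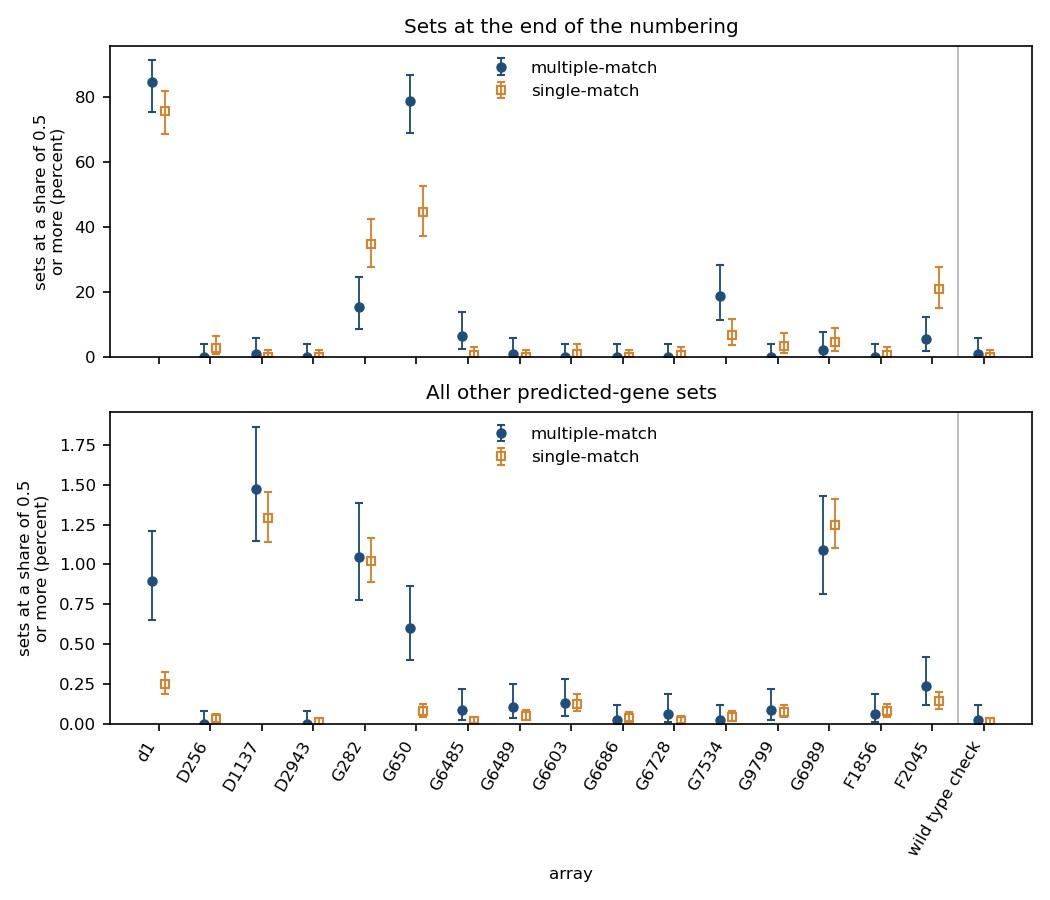
Percent of sets at a share of 0.5 or more in each array, with exact Clopper-Pearson 95% intervals, for multiple-match (circles) and single-match (squares) sets at the end of the numbering (upper panel) and elsewhere (lower panel, other scale). At the end of the numbering d1 and G650 stand at 84.4 and 78.9% for the multiple-match sets, and elsewhere at 0.898 and 0.599%. The intervals show counting error only and test no difference, since the block was noticed after its values were seen.

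Away from the end of the numbering, a larger percent of the multiple-match sets than of the single-match sets was low in d1 and G650. In d1, 42 of 4675 were low (0.898%), against 51 of 20563 single-match sets (0.248%). In G650, 28 were low (0.599%), against 16 (0.0778%). G7534 kept 1 of its low sets and G6485 kept 4. Over the lines the excess of the mean share was then -0.000125 (p = 0.913), and that of the percent of low sets 0.0886 percentage points (p = 0.106), both by the exact sign-flip permutation test. The block was left out after its high values were seen, so these p-values are a description and decide nothing. D1137, with 69 low sets of 4675, showed no such block.

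**Figure D4:**
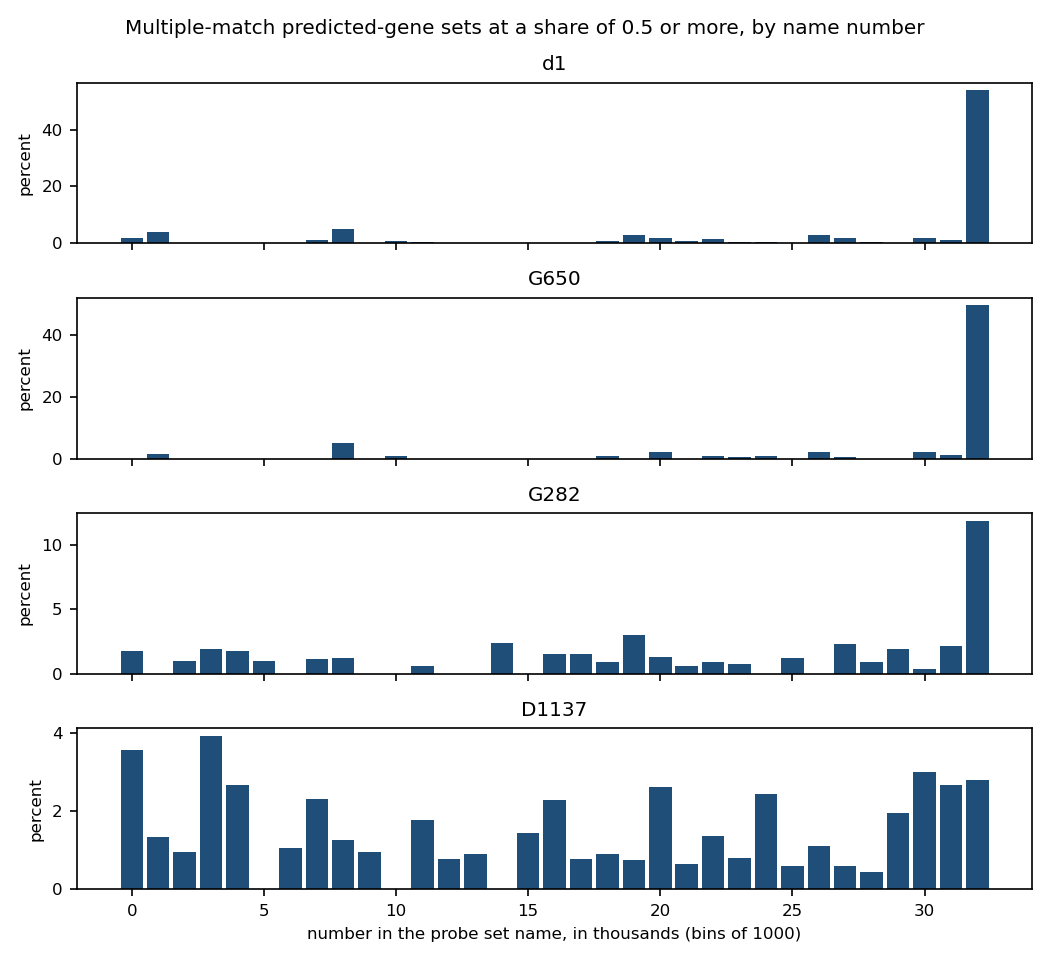
Percent of multiple-match sets at a share of 0.5 or more (vertical axes, differing in scale) by the number in the set name, in bins of 1000, for d1, G650, G282 and D1137. The last bin stands out in d1, G650 and G282, while the calls of D1137 are scattered over the numbers.

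Some names occur once with S and once with A, for the sense and the antisense strand. Among the multiple-match sets there were 69 such pairs, 13 of them at the end of the numbering. In G650 both sets were low in all 13 pairs. In d1 both were low in 11 pairs and 1 of the 2 in the other 2 pairs. In G7534 both were low in 2 pairs and 1 set in 6 pairs. In the wild type check no set of these pairs was low. The median difference within a pair was 0.0909, a single probe of 11, in d1 and in G650. Away from the end, 3 pairs were low together in some line. OsAffx.20471.1 had shares of 0.545 (sense) and 0.545 (antisense) in d1 and of 1 and 0.727 in G650. OsAffx.31745.2 had 0.636 and 0.818 in d1, 0.727 and 0.727 in G282, and 0.545 and 0.636 in F2045. OsAffx.8236.1 had 1 and 0.818 in both d1 and G650.

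Of the multiple-match sets 283 (5.94%) were low in at least 1 line, close to the 5.97% of all sets and above the 4.42% of single-match sets. In at least 2 lines 123 were low (2.58%), with 1.26% of all sets and 1.04% of single-match sets. In at least 3 lines 40 were low (0.839%), with 0.413% of all sets and 0.429% of single-match sets. These differences were not tested. Since the lines share a reference, a set that is low in several of them is given as a description. Away from the end of the numbering, 48 multiple-match sets (1.03%) and 98 single-match sets (0.477%) were low in at least 2 lines. At the other extreme, 276 multiple-match sets (5.79%) and 1028 single-match sets (4.96%) were at 0 in all 17 arrays.

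The sets low in most lines were of several kinds. OsAffx.719.1.S1_s_at was low in 9 lines, with 0.75 in G6989, 0.625 in G6485, G6686 and G7534, and 0.5 in d1, G282, G6489, G6603 and F2045. It was at 0.375 in G6728, at 0.25 or less in D1137, D2943 and G9799, and at 0 in D256, G650, F1856 and the wild type check. Of its 9 low values 5 lay on the threshold itself. OsAffx.27020.1.S1_x_at was low in 8 lines, from 0.545 in G282, G6603, G9799 and F2045 to 0.727 in G6489. In the other lines it was at 0.364 or 0.455, except G650 with 0, and it was at 0.182 in the wild type check. Its number lies between numbers paired with genes of chromosome 5.

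Of the remaining sets low in 4 lines, several belong to the end of the numbering. OsAffx.32219.1.A1_x_at was at 0.909 in d1, 1 in G650, and 0.636 in G6485 and G7534. OsAffx.32333.1.S1_x_at was at 1 in d1 and G650, 0.545 in G6485 and 0.636 in G7534. OsAffx.32233.1.A1_x_at was at 0.909 in d1, 0.727 in G650, and 0.545 in G282 and G7534. All these had shares of 0.364 or less in the other lines and at most 0.0909 in the wild type check. OsAffx.32229.1.S1_x_at was at 0.818 in d1 and G650, 0.636 in G7534 and 0.545 in G6489.

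A second pattern joined d1, G282, G6989 and F2045. OsAffx.7600.1.S1_s_at was at 0.818 in d1, 1 in G282, 0.636 in G6989 and 0.909 in F2045. OsAffx.31745.2.S1_s_at was at 0.636, 0.727, 0.545 and 0.545 in the same lines. Both were at 0 in G650 and in the wild type check, and at 0.364 or less elsewhere. OsAffx.18764.3.S1_s_at was at 0.545 in G282, G6728, G6989 and F2045, at 0 in G650 and at 0.273 in the wild type check.

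**Figure D5:**
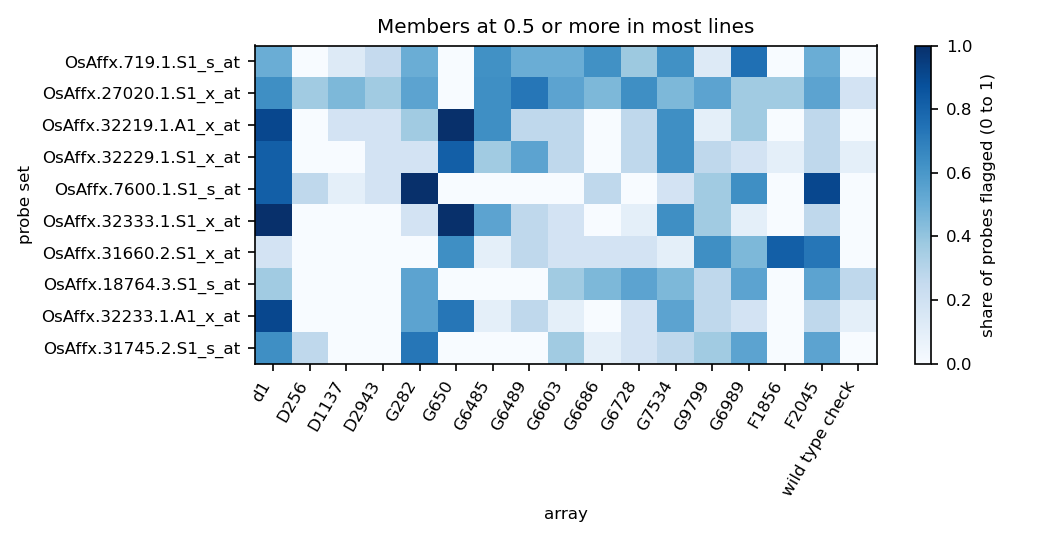
Share of flagged probes (colour, 0 to 1) of the 10 multiple-match sets low in most lines, in the 17 arrays. OsAffx.719.1.S1_s_at and OsAffx.27020.1.S1_x_at are raised across many lines but not in G650, whereas the sets numbered above 32183 are highest in d1 and G650.

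The lines G650, G9799, F1856 and F2045 were studied together as spl1 mutants, named for their spotted leaves. The DEB lines D1137 and D2943 are spl1 mutants too. By the study, complementation tests placed D1137, D2943, G650 and F1856 at spl1, while G9799 and F2045 were genetically unconfirmed. OsAffx.31660.2.S1_x_at and OsAffx.31767.2.S1_x_at were the 2 of 4765 multiple-match sets low in G650, G9799, F1856 and F2045 alike. Of the 20735 single-match sets 3 were so. The share over all sets was not computed, so these counts say nothing particular about the multiple-match sets. OsAffx.31660.2.S1_x_at had shares of 0.636 in G650 and G9799, 0.818 in F1856 and 0.727 in F2045, at most 0.455 in the other lines and 0 in the wild type check. OsAffx.31767.2.S1_x_at had 0.727, 0.727, 0.818 and 0.727 in the same order, at most 0.364 in the other lines and 0 in the wild type check. In D1137 and D2943 both sets were at 0. Both numbers lie between numbers paired with genes of chromosome 12. OsAffx.19702.1.S1_x_at was low in G9799 (0.727), F1856 (0.818) and F2045 (0.636), and at 0 in G650 and the other 13 arrays. OsAffx.8236.1.S1_x_at was at 1 in d1 and G650 and at 0.545 in G282, with 0.273 in the wild type check. These 4 sets were chosen after their values were seen. The first of them is also among the 10 low in the largest numbers of lines.

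Of the 192 multiple-match sets paired with exactly 1 gene, 17 (8.85%) were low in at least 1 line, 14 of them in exactly 1 line. Of all 22436 sets paired with exactly 1 gene, 7.26% were low in at least 1 line, which lies within the exact Clopper-Pearson interval of the 192 sets (5.24 to 13.8%). By line, with the backgrounds given above, 5 were low in D1137 and in G282, 4 in G6989, 3 in d1 and 2 in G650. G6489, G6603, G7534 and F2045 had 1 each, and the other 7 lines and the wild type check had none. Their genes include cob, the mitochondrial gene of apocytochrome b, a subunit of respiratory complex III, whose set was at 0.818 in d1, 0.727 in G282 and 0.545 in F2045. That set was at 0.455 in D256, at 0.182 in G7534, G9799 and G6989, and at 0 in the other 9 lines and the wild type check. The set of atpI, a plastid gene of a membrane subunit of ATP synthase, was at 0.818 in G650, 0.636 in d1, 0.364 in G282 and 0.0909 in the wild type check. In both sets the suffix says that the probes also match other sequences, and which copies were measured was not tested.

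LOC4324621 was the gene-paired set low in most lines, as given above, and its wild type check value was 0.0909. The other gene-paired sets were low in 1 line each. The highest was that of LOC4349327 on chromosome 10, at 0.818 in D1137, 0.455 in G6989 and 0.273 or less elsewhere. In D1137 the sets of LOC4339337 (0.727), LOC4341641 (0.636), LOC4333923 (0.636) and LOC4335576 (0.545) were also low. They lie on chromosomes 5, 6, 3 and 4. In G282 the sets of LOC4333099 and LOC4350656 were at 0.636, and those of LOC4339427 and LOC4335526 at 0.545. In G6989 the set of LOC4344531 on chromosome 8 was at 0.636, with 0.0909 or 0 in every other line, and those of LOC4338005, LOC4332420 and LOC4347687 were at 0.545. In G6603 the set of LOC4345309 on chromosome 8 was at 0.545.

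Names that share a number stand for related transcript models. The multiple-match sets carry 4121 numbers, of which 3666 have 1 set and 15 have 5 or more. OsAffx.27508, with 15 sets, and OsAffx.24964, with 6, had no low set in any line. Among the 15 numbers with 5 or more sets, OsAffx.26050 had the most calls over lines (9), and all 5 sets were low in d1 (0.545 to 0.909) and 4 of them in G650 (0.727 to 0.909), while the wild type check values were 0.182 or less. In OsAffx.19953 3 of 5 sets were low in d1. OsAffx.19953.6.S1_s_at was at 0.727 in d1, 0.909 in G282 and 0.909 in F2045. OsAffx.29755 had 1 low set, at 0.545 in G282 and in G6989.

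On the wild type check the 2 low multiple-match sets were both at 0.545. OsAffx.32166.1218.S1_x_at was at 0.182 in G6989, 0.0909 in G282 and 0 in the other lines, so it was low on the wild type check alone. OsAffx.32347.1.S1_x_at, at the end of the numbering, was at 0.818 in G282 and 0.545 in d1 as well.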

How the data were processed

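Genomic DNA of 17 samples was hybridized to 1 array each. The authors averaged 2 scans, scaled the log2 signals of perfect match probes so that each array had the wild type mean, without background correction, and flagged probes by their log2 ratio to wild type. The deposited values are the fraction of flagged probes per set. The log ratio behind them is not stated beside the values. For RGA1 in d1 the deposited share is above the one the study gives at the cutoff it used for d1. The authors left sets that map to several gene models out of their gene mapping. The submitters' processing notes name affy with no version. Probe signals were not analysed here. The number of probes and arrays limits precision, as do the unclear wild type reference and the flagging level of each array.

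Sets were classed by name with Python 3.11.15, numpy 2.4.6, pandas 2.3.3 and scipy 1.17.1. Genes came from the platform annotation, updated by gene ID through the gene table of ASM3414082v1, from which names, chromosome and order were taken. Neither table holds descriptions, so groups by description words were not made. Differences were tested over lines with exact sign-flip (65536 patterns) and exact permutation tests, and correlations with 100000 permutations. Benjamini-Hochberg adjustment covered 6 tests, without the correlations, the suffix comparisons and the alternative settings. On simulated data of the mean share excess (4765 and 20735 sets), no planted excess passed 0.05 in 3 of 50 runs, and a planted 0.02 passed in 50 of 50. That planted excess is above the highest line (0.0134 in G650). The runs thus do not tell how often an excess of the size seen would pass. Sets were simulated independently of each other, unlike the sets at the end of the numbering.

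Named sets were the 10 low in the largest numbers of lines and those low on the wild type check. Also named were the highest gene-paired set of each line, gene-paired sets low in 3 or more lines, cob and atpI. The numbers with most sets and calls were named too. The remaining low gene-paired sets and those stated in the text were added after their values were seen. Members and lists were chosen with earlier results of these data known. Alternatives were thresholds of 0.4 and 0.6, subtraction of the wild type check, centring, subsets of sets and lines left out. Shares over 0.5, sense sets, and leaving out the end of the numbering or d1 with G650 were added after seeing the data.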

Additional observations from a re-analysis of the deposited data

Results flagged for a closer look

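Within the 10 gamma ray lines, 17 measures were checked for a line far from the others by Dixon's criterion, which flags about 1 in 20 groups by chance, and 4 were picked out. G6989 had a mean share of 0.132 over the multiple-match sets, where the next line had 0.0676. G650 had an excess of 1.63 percentage points of low multiple-match over single-match sets, where the next line had 0.276. Without the end of the numbering, a block noticed after its values were seen, the excess of G650 was 0.521 percentage points, and that of the next line 0.071. OsAffx.27020.1.S1_x_at was at 0 in G650, and at 0.364 or more in the other gamma ray lines.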

How the results depend on the processing

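The p-values here are unadjusted. The excess of the mean share (0.00148) became 0.00805 with _s_at sets alone, and turned negative with _x_at sets alone (-0.000901), within name numbers that hold both kinds (-0.000943), without the end of the numbering (-0.000125) and without d1 and G650 (-5.4e-05). The excess of the percent of low sets (0.235, p = 0.0591, exact) passed 0.05 at a share of 0.4 (0.308), with centred arrays (0.245), with _s_at sets (0.309) and with sense sets (0.254), and turned to -0.13 within name numbers. The difference from other sets fell short of 0.05 after subtraction of the wild type check for the mean share (0.00141). For the percent it did so after that subtraction (0.118), with _s_at sets (0.0215), without the end of the numbering (0.0641) and without d1 and G650 (0.0754). The DEB difference of the percent (-0.126) was 0.264 with d1 as a DEB line and 0.0203 at a share of 0.4. The correlation with the level of other sets went from -0.62 to -0.266 without G6989 and G282. The 123 multiple-match sets low in 2 or more lines were 48 without the end of the numbering and 70 after subtraction of the wild type check. Counts of low multiple-match sets moved by over 1.5 times in 12 of 17 arrays at a share of 0.4, in 9 at 0.6, in 6 after that subtraction and in 5 without the end of the numbering.

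Leaving out 1 line at a time gave an excess of 0.000686 to 0.00221 for the mean share and 0.142 to 0.262 for the percent, which passed 0.05 without D256 (0.254) or G6989 (0.262). The difference from other sets ran from 0.00368 to 0.00465 and from 0.144 to 0.229. The DEB difference ran from -0.000576 (without D1137) to 0.00516 and, for the percent, from -0.2002 to 0.00668 (without G650). No paired analysis was possible because replicate numbers only name lines, each hybridized once. The differences tested were already taken within each array.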
